A study of Mus musculus with 4 samples.

Results

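The absorption of dietary fat and its packing into chylomicrons was followed through 10 genes in cells sorted from mouse small intestine. The genes were Fabp1, Fabp2, Apoa1, Apoa4, Apob, Apoc3, Mttp, Dgat1, Mogat2 and Cd36. They were chosen by symbol, as array features annotated with exactly 1 gene symbol, and all 10 were measured, each by 1 feature, among 30702 genes in all. RNA of each group was hybridised to a single Clariom D mouse array, a whole-transcript chip that reads coding and noncoding RNA. The 4 groups were GFP-positive stem cells with a mutated LncGata6 (a long noncoding RNA gene beside Gata6), GFP-positive stem cells without Ehf (an epithelial ETS transcription factor; Ehf-/-), wild-type GFP-positive stem cells, and wild-type GFP-negative non-stem cells. Mice were 8 weeks old and carried Lgr5GFP-CreERT2, which places GFP and an inducible Cre under the control of the stem cell gene Lgr5. How many animals gave each RNA, and how the LncGata6 and Ehf alleles were made, is not stated in the sources used here. With 1 array in each group differences have no replicate check and no test, and precision is set by the small number of arrays. In RNA from sorted pools, fewer cells of a type and less RNA per cell cannot be told apart.

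Fat absorption is the work of the mature enterocyte of the villus, and not of the crypt base stem cell that gives rise to it. Pancreatic lipase releases fatty acids and monoacylglycerol in the gut lumen, and carriers such as CD36 and the small fatty acid binding proteins bring them to the endoplasmic reticulum. There the enzymes encoded by Mogat2 and Dgat1 rebuild triglyceride, and the transfer protein encoded by Mttp loads it onto apolipoprotein B as it is made. Apolipoproteins A-I, A-IV and C-III join the particle, which leaves through the lymph. Hepatocytes build very low density lipoprotein with much of the same machinery, so Fabp1, Apoa1, Apob, Apoc3 and Mttp are also genes of liver, whereas Fabp2 and Mogat2 are mainly genes of the gut.

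The labels were checked against marker genes. Ehf read 5.09 (log2) in LncGata6 mutant cells, 3.03 in Ehf knockout cells, 6.99 in wild-type stem cells and 3.75 in non-stem cells. LncGata6, listed as Gata6os, lay under the control limit on every array, so it checks no label. The control limit is the 95th percentile of an array's negative control features, 5.31, 5.19, 5.62 and 5.16 on the LncGata6 mutant, Ehf knockout, wild-type stem and non-stem arrays. Ehf was above it in wild-type stem cells alone. Lgr5 read 3.03 in LncGata6 mutant cells and 2.79 in Ehf knockout cells, both under the limit, against 9.41 in wild-type stem cells and 3.03 in non-stem cells. All 10 general epithelial markers were under the limit on the Ehf knockout array, with a median of 3.71 (8.90 on the wild-type stem array), while 7 of 7 neutrophil markers were above it. All 12 hepatocyte and all 8 kidney tubule markers were above the limit on the non-stem array, with medians of 11.14 and 8.90, and 0 of them on the other arrays. The collection protocol also names a sort of ILCreg cells, which are innate lymphoid cells, so the gate is uncertain. Arrays are called by their labels throughout.

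The 10 genes were highest by median on the LncGata6 mutant array and mostly under the control limit on the Ehf knockout array. The control limit was reached by all 10 in LncGata6 mutant cells, by 2 in Ehf knockout cells (Dgat1 and Cd36), by 6 in wild-type stem cells and by 9 in non-stem cells. Of all 30702 genes 6165, 5359, 5071 and 8122 reached it on these arrays in the same order. The Ehf knockout count was thus near the share of all genes. Their median was 9.75 in LncGata6 mutant cells, 3.67 in Ehf knockout cells, 6.42 in wild-type stem cells and 8.58 in non-stem cells. The LncGata6 mutant array held the highest value for 6 genes, Fabp2, Apoa4, Apob, Mttp, Dgat1 and Mogat2, against 17.4% of all genes. The non-stem array held it for Fabp1, Apoa1, Apoc3 and Cd36, against 45.3% of all genes.

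**Figure D1:**
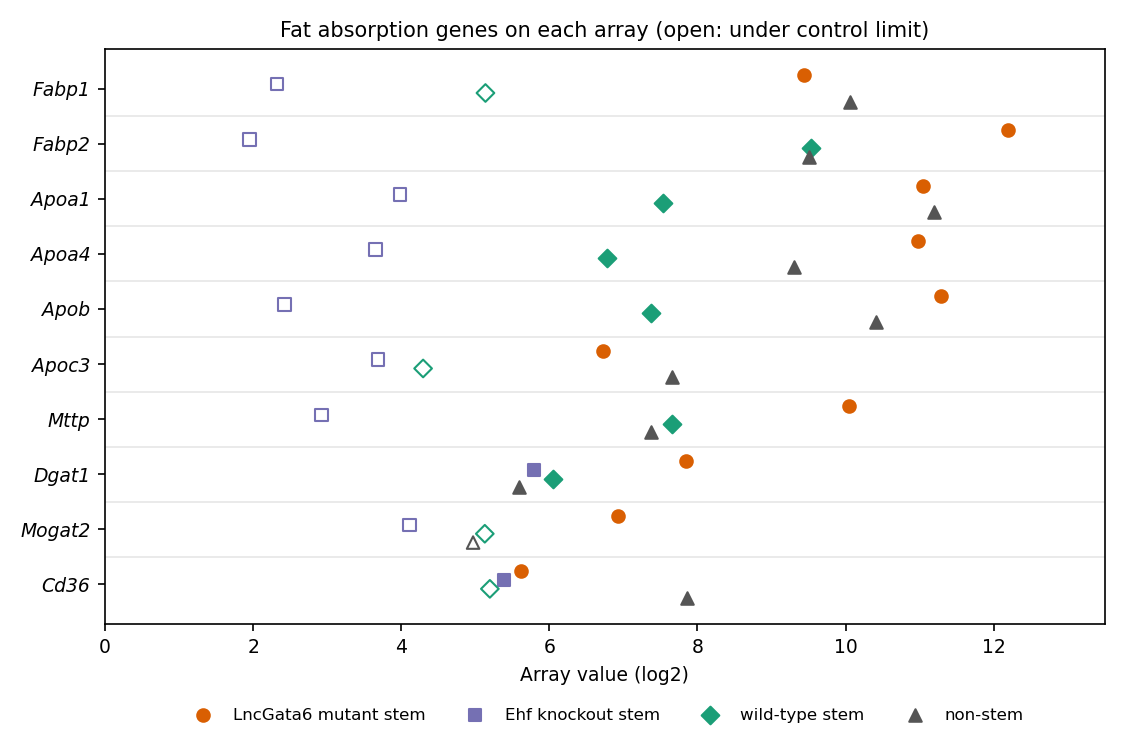
Array value (log2) of the 10 fat absorption genes, 1 symbol for each of the 4 arrays, open where the value lies under that array's control limit. The LncGata6 mutant values are filled throughout and the Ehf knockout values are open for 8 of the 10 genes. Cd36 has its highest value, 7.86, on the non-stem array, as do Fabp1, Apoa1 and Apoc3.

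Fabp2 encodes the intestinal fatty acid binding protein, an abundant cytosolic carrier of enterocytes. It read 12.19 in LncGata6 mutant cells, 1.95 in Ehf knockout cells, 9.54 in wild-type stem cells and 9.50 in non-stem cells. The wild-type stem and non-stem values thus lay 0.04 apart. Fabp1, the liver-type carrier that enterocytes share with hepatocytes, read 9.44 in LncGata6 mutant cells, 2.32 in Ehf knockout cells, 5.14 in wild-type stem cells and 10.06 in non-stem cells. The wild-type stem value of Fabp1 lay under the control limit, so the Fabp1 values split the arrays into a high pair, LncGata6 mutant and non-stem, and a low pair.

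Cd36, the scavenger receptor that takes up long-chain fatty acids in enterocytes and also in macrophages, endothelium, fat and muscle, varied least among the stem cell arrays. It read 5.62 in LncGata6 mutant cells, 5.38 in Ehf knockout cells and 5.20 in wild-type stem cells, the last under the limit, and 7.86 in non-stem cells. The non-stem array was also the one with kidney and liver RNA, and its endothelial markers had a median of 6.15 with 6 of 7 above the limit. Macrophage markers were highest on the Ehf knockout array, where their median was 7.65 with 7 of 8 above the limit. The part of these cells in the Cd36 values was not tested.

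Among the enzymes that rebuild triglyceride, Mogat2 encodes monoacylglycerol acyltransferase, which adds the second fatty acid. Mogat2 read 6.93 in LncGata6 mutant cells, 4.11 in Ehf knockout cells, 5.13 in wild-type stem cells and 4.97 in non-stem cells. The LncGata6 mutant value was the one Mogat2 value above a control limit. Dgat1, which encodes the acyltransferase of the last step and is active in many tissues, read 7.84 in LncGata6 mutant cells, 5.80 in Ehf knockout cells, 6.05 in wild-type stem cells and 5.59 in non-stem cells. Dgat1 was above the limit on all 4 arrays, and the 3 arrays other than the LncGata6 mutant lay close together.

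Apob encodes the structural protein of the chylomicron, carried by every particle. It read 11.29 in LncGata6 mutant cells, 2.43 in Ehf knockout cells, 7.37 in wild-type stem cells and 10.41 in non-stem cells. Mttp, which encodes the lipid-loading subunit of the microsomal transfer protein, read 10.05, 2.92, 7.66 and 7.37 in the same order of arrays. Apob and Mttp therefore parted on the non-stem array, where Apob stood near its highest value and Mttp near its wild-type stem value.

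The surface apolipoproteins come next. Apoa1, the main protein of high density lipoprotein and a coat protein of new chylomicrons, read 11.05 in LncGata6 mutant cells, 3.98 in Ehf knockout cells, 7.54 in wild-type stem cells and 11.19 in non-stem cells. Apoa4, which enterocytes secrete on chylomicrons during fat absorption, read 10.98, 3.65, 6.78 and 9.30 in the same order. Apoc3, an inhibitor of lipoprotein lipase and of remnant clearance, read 6.73, 3.69, 4.30 and 7.66, with the Ehf knockout and wild-type stem values under the limit. All 3 were thus high on the LncGata6 mutant and non-stem arrays, under the limit in Ehf knockout cells, with wild-type stem values below those of the high pair.

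Promoter sequences are shown for the 2 fatty acid binding proteins and for Apoa4 and Apob, all higher on the LncGata6 mutant array than on the wild-type stem array, because they hold matches to motifs of gut and liver factors. RefSeq's table of promoters (GRCm38.p6) held 7 of the 10 genes, all but Apoc3, Dgat1 and Mogat2. The 250 bases before the listed start were searched on both strands for the HNF4 letters CAAAGNNCA, the HNF1 core GTTAAT, the CDX letters TTTATNG, the GATA core GATAA and the TATA box TATAAA. The sequences run 5′ to 3′ on the gene's strand and capitals mark the matches. The windows are chr6:71199629-71199878 (plus strand) for Fabp1, chr3:122894822-122895071 (plus) for Fabp2, chr9:46240594-46240843 (plus) for Apoa4 and chr12:7977427-7977676 (plus) for Apob. The build behind the array's features is not given in the sources used here, so these windows locate the promoters and not the probes.
Fabp1: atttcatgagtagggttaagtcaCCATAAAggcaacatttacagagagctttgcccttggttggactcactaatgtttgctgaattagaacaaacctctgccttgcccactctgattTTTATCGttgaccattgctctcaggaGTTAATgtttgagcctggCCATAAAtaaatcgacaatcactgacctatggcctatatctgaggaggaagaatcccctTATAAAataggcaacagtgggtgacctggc
Fabp2: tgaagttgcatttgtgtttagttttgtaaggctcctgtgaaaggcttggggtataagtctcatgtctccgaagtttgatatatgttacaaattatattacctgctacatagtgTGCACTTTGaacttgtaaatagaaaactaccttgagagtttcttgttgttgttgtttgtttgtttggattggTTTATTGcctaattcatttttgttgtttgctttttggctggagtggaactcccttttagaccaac
Apoa4: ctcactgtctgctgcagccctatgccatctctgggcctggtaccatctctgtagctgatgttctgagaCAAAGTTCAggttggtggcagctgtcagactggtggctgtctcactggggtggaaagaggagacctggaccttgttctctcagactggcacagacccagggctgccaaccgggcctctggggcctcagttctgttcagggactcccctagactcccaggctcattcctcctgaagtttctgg
Apob: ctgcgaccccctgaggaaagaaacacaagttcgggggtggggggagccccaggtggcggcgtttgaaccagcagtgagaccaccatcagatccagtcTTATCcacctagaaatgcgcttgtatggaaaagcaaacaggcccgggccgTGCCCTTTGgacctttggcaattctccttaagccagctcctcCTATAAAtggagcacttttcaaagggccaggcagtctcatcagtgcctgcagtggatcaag
The HNF4 letters occurred in Fabp2, Apoa4 and Apob, 3 of the 7, against 5.49% of 32841 promoter windows. The CDX letters occurred in Fabp1, Fabp2 and Apob (9.81% of windows), the GATA core in Fabp1 and Apob (22.6%), the TATA box in Fabp1 and Apob (12.4%) and the HNF1 core in Fabp1 (6.43%). In Fabp1 a CDX match overlapped the GATA match, and in Apob the CDX match overlapped the TATA box. The windows of Apoa1, Mttp and Cd36 held 0 of the 5 motifs. A match describes letters in a window and not a site in use.

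The LncGata6 mutant array was then set against the wild-type stem array. Lgr5 was under the limit on the LncGata6 mutant array (3.03, against 9.41 on the wild-type stem array). With 1 array in each group, the mutation and a changed mix of sorted cells cannot be told apart. A gene was called higher or lower when the arrays differed by at least 1 (log2, 2-fold) and the brighter value reached the 75th percentile of its array. Folds are brighter over dimmer, with the control limit in place of a dimmer value under it, in which case the fold is "at least". By this rule 9 of the 10 genes were higher and 0 lower, against 2.81% of all genes higher, 3.02% lower and 5.82% in either direction. Over all genes that was 862 higher and 926 lower, and 1100 and 652 after cyclic loess scaling. The median difference of the 10 was 2.54, beside -0.06 over all genes.

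Fabp1 and the apolipoproteins Apoa4, Apob and Apoa1 differed most between those arrays. Fabp1 was at least 14.1-fold higher, Apoa4 18.4-fold (difference 4.20), Apob 15.2-fold (3.92) and Apoa1 11.4-fold (3.51). Fabp2 was 6.27-fold higher and Mttp 5.26-fold, from wild-type stem values that were already well above the limit. Dgat1 was 3.47-fold higher, Mogat2 at least 2.47-fold and Apoc3 at least 2.15-fold. Cd36 differed by 0.43 and was not called.

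These higher values moved with those of other enterocyte genes. All 10 enterocyte markers were higher on the LncGata6 mutant array, with a median difference of 3.49, against 0.47 for the general epithelial markers (2 of 10 higher and 3 lower; 4 and 2 after cyclic loess). Of the fat absorption genes, 4 of 10 differed by more than the enterocyte median and 9 of 10 by more than the epithelial median. Crypt base stem cell markers were lower in 6 of 8 cases (median -1.50) and endothelial markers in 5 of 7 (median -1.63; 3 with the control limit as floor). T cell and intraepithelial lymphocyte markers were higher in 7 of 7 (median 4.26), with a median level of 8.71 against 5.06 on the wild-type stem array. Hepatocyte markers were at 1.24 to 4.05 on the LncGata6 mutant array, 0 of 12 above the limit. The part of a changed share of enterocytes or lymphocytes in the result was not tested.

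**Figure D2:**
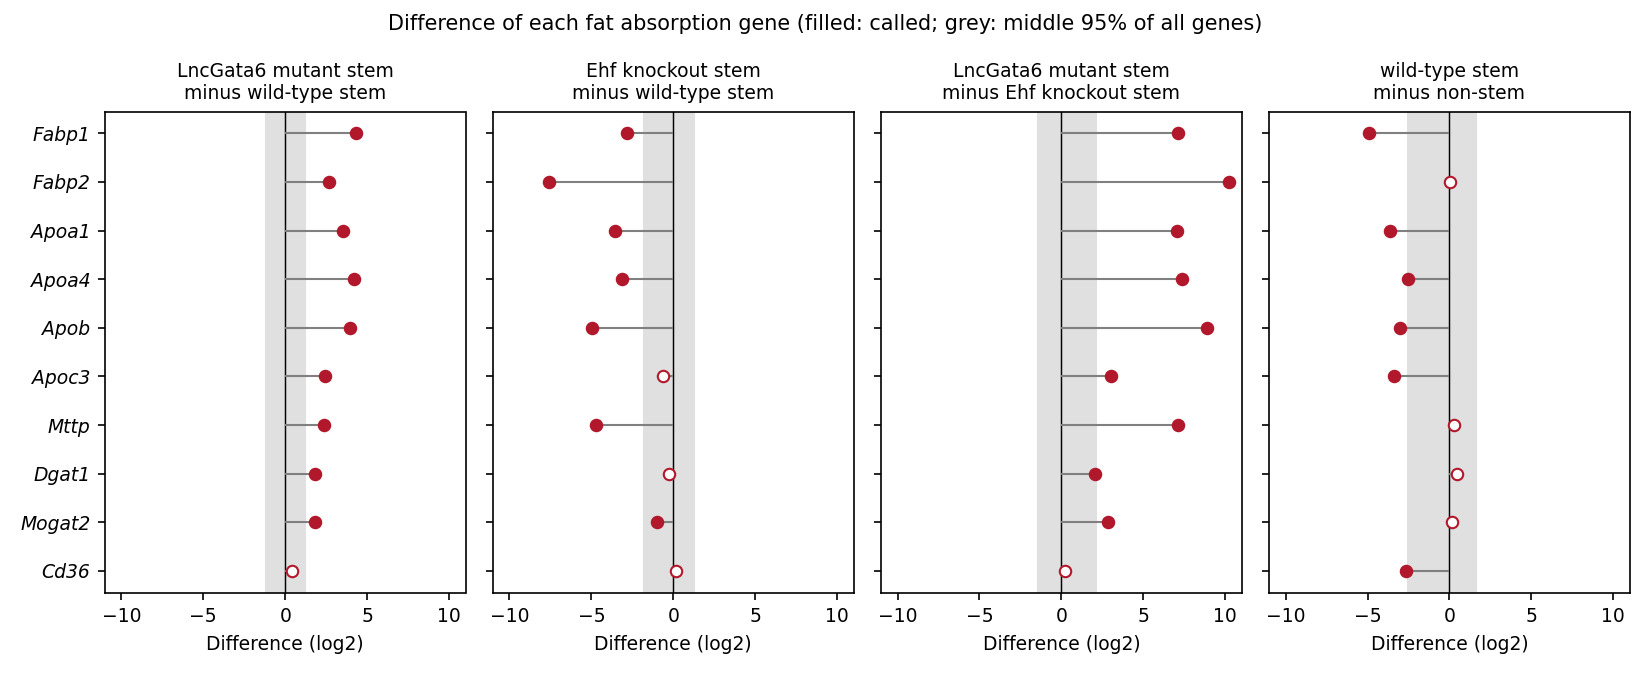
Difference (log2) of each fat absorption gene in the 4 comparisons, filled where called, over a grey band that holds the middle 95% of all genes. In the LncGata6 mutant against wild-type comparison 9 of the 10 genes lie above the band, whose upper edge is 1.22. In the Ehf knockout against wild-type comparison 6 lie below the band, among them Fabp1, whose values on both arrays are under the control limits.

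On the Ehf knockout array, set against the same wild-type stem array, 7 of the 10 genes were lower and 0 higher, against 5.29% of all genes lower, 2.59% higher and 7.88% in either direction. Over all genes that was 796 higher and 1624 lower, and 1130 and 1036 after quantile normalization. The median difference of the 10 was -2.97, beside -0.20 over all genes. Fabp2 was at least 20.4-fold lower (1.95 on the Ehf knockout array, 9.54 on the wild-type stem array). Mttp was at least 5.53-fold lower, Apoa1 at least 5.09-fold, Apob at least 4.53-fold and Apoa4 at least 3.02-fold. Fabp1 and Mogat2 were also called, but both of their values lay under the control limits, so no fold is given. With the control limit as the floor for the brighter value their calls ended and 5 genes were lower. The Mogat2 call, a difference of -1.02, also ended under each of the 3 other scalings. Apoc3 (-0.61), Dgat1 (-0.25) and Cd36 (0.19) were not called.

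Epithelial markers of every kind on the lists were also low on the Ehf knockout array. General epithelial markers were lower in 10 of 10 cases with a median of -5.27, and enterocyte markers in 6 of 10 with a median of -2.91. Neutrophil markers were higher in 7 of 7 (median 7.60), macrophage markers in 7 of 8 (2.69) and red cell markers in 3 of 3 (4.72). The part of a smaller share of epithelial cells in the differences was not tested, and with 1 array it cannot be told apart from the genotype.

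Between the mutants, the LncGata6 mutant array was higher than the Ehf knockout array in 9 of 10 genes and lower in 0, against 6.16% of all genes higher, 3.47% lower and 9.63% in either direction (1891 and 1066 genes; 1417 and 1445 after quantile normalization). The median difference was 7.09, beside 0.13 over all genes. Fabp2 was at least 128-fold higher, the largest bound among the 10 genes. Apob was at least 68.7-fold higher, and Apoa1 and Apoa4 at least 58.0-fold and 55.4-fold. Mttp was at least 29.1-fold higher, Fabp1 at least 19.1-fold, Dgat1 4.13-fold, Mogat2 at least 3.34-fold and Apoc3 at least 2.91-fold. Cd36 differed by 0.24. Enterocyte and general epithelial markers were each higher in 10 of 10 cases (medians 7.18 and 5.07) and T cell markers in 6 of 7 (3.09). Neutrophil markers were lower in 7 of 7 (-7.50), macrophage markers in 7 of 8 (-2.98) and red cell markers in 3 of 3 (-4.65). The part of these cells in the result was not tested. Both comparisons with wild-type stem cells share the wild-type array, so their differences are not independent of each other.

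The wild-type stem array was last set against the non-stem array, on which hepatocyte and kidney tubule markers were also above the limit. The comparison is therefore not one of stem and non-stem gut cells alone. Here 6 of the 10 genes were lower and 0 higher, against 7.07% of all genes lower, 3.83% higher and 10.9% in either direction (2172 and 1176 genes; 1684 and 1732 after quantile normalization). The 6 were Fabp1 (at least 21.7-fold), Apoa1 (12.6-fold), Apob (8.21-fold), Apoa4 (5.73-fold), Cd36 (at least 4.72-fold) and Apoc3 (at least 4.11-fold). Fabp2 (0.04), Mttp (0.28), Dgat1 (0.46) and Mogat2 (0.16, with both values under the limits) were not called. The median of the 10 was -2.59, beside -0.11 over all genes.

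The non-stem values stand beside a strong liver signal. Hepatocyte markers were lower on the wild-type stem array in 12 of 12 cases (median -8.65), and their non-stem values ran between 9.48 and 12.52. Enterocyte markers were lower in 5 of 10 cases and higher in 1 (median -0.89), and general epithelial markers were higher in 9 of 10 (median 2.20). On the LncGata6 mutant array, where hepatocyte markers were under the limit, Fabp1 and Apoa1 lay close to their non-stem values, with differences of -0.62 and -0.14. For Fabp2 and Mttp the same difference was 2.68, with the LncGata6 mutant higher. How much of the non-stem Fabp1, Apoa1, Apob and Apoc3 values came from liver RNA was not tested.

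**Figure D3:**
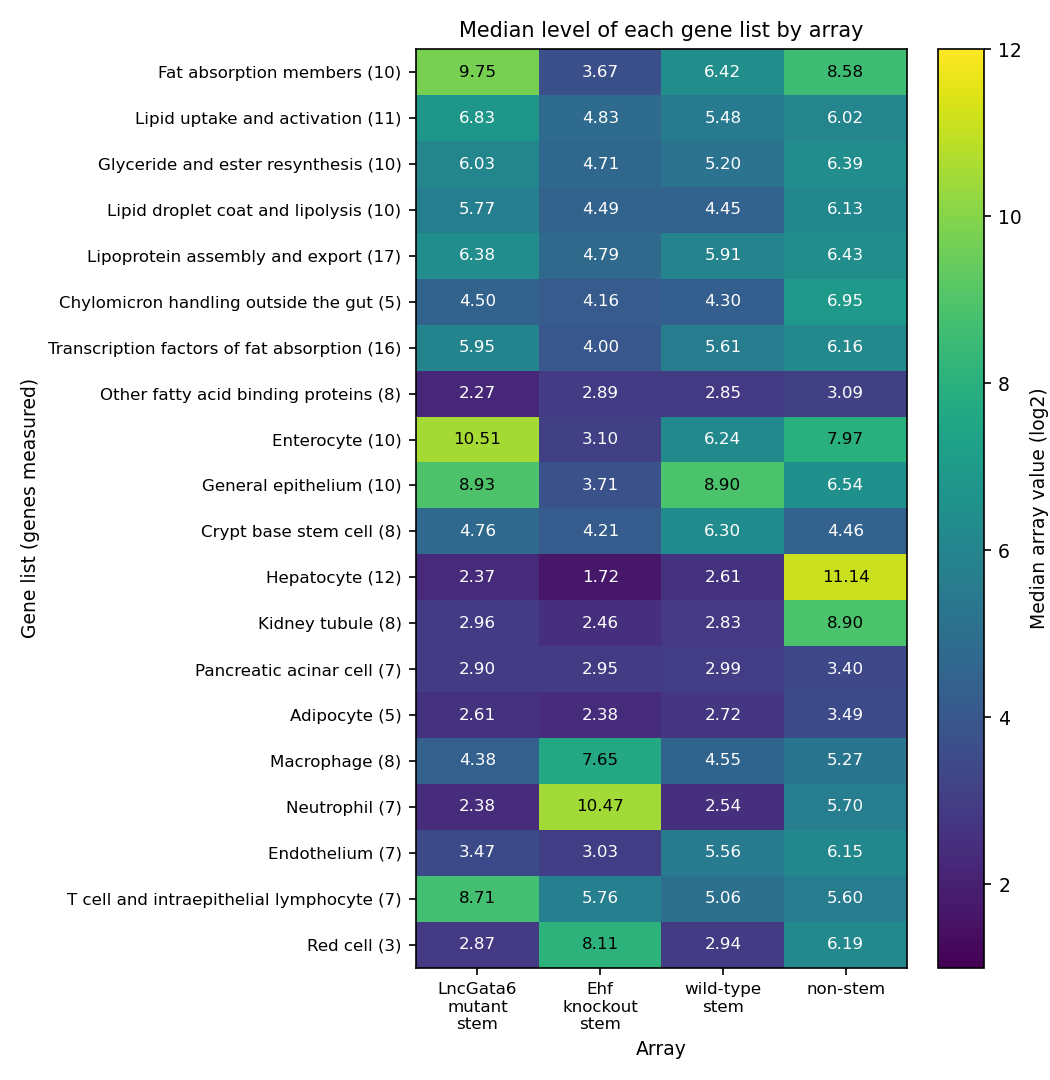
Median array value (log2, colour and printed number) of the 10 fat absorption genes and of each gene list, in rows with the number of genes measured, on the 4 arrays in columns. The fat absorption and enterocyte rows peak on the LncGata6 mutant array at 9.75 and 10.51, the hepatocyte row on the non-stem array at 11.14 and the neutrophil row on the Ehf knockout array at 10.47.

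The rest of the pathway was read from lists ordered by step. In lipid uptake and activation, 5 of 11 genes were higher in LncGata6 mutant than in wild-type stem cells and 0 were lower (median 0.92). Slc27a4, a fatty acid transport protein with acyl-CoA synthetase activity, was at least 8.86-fold higher (8.77 against 5.23). The cholesterol transporter gene Npc1l1 was 8.08-fold higher and Acsl5, an acyl-CoA synthetase of enterocytes, 5.71-fold. On the Ehf knockout array 5 of 11 were lower than on the wild-type stem array and 1 higher (median -0.79). The count was 3 lower with the control limit as floor and 4 lower with 2 higher under each other scaling, and the median was -0.38 with the median of features. Slc27a2 was at least 2.96-fold lower there, Npc1l1 at least 2.55-fold and Abcg5, a subunit of the sterol exporter, at least 1.81-fold. The higher gene was Acsl4, an acyl-CoA synthetase of the same family as Acsl5, at 5.56 against 4.35.

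In the resynthesis of glycerides and esters, 4 of 10 genes were higher and 0 lower in LncGata6 mutant cells (median 0.77). Dgat2, another enzyme for the step that Dgat1 catalyses, was at least 6.37-fold higher, at 8.30 against 5.35 on the wild-type stem array. Gpat3, of the glycerol phosphate route, was at least 2.61-fold higher and Lpin2, a phosphatidate phosphatase, at least 2.56-fold. Gpat3 has 2 features, and with the median of features its call ended and 3 genes were higher. The count was also 3 with the control limit as floor. On the Ehf knockout array 1 of 10 was lower, Gpat3, with both values under the limits (median of the list -0.24). That call ended under all 5 alternatives, and under quantile normalization and cyclic loess 1 gene was higher and the median was 0.04 and 0.07. Mogat1, the paralog of Mogat2, was under the limit on all 4 arrays.

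The lipid droplet list had 4 of 10 genes higher and 1 lower in LncGata6 mutant cells (median 0.86). Cidec, which promotes droplet growth, was at least 2.60-fold higher (7.0 against 3.85), Plin3, a droplet coat protein, 5.31-fold and Cideb, which takes part in lipoprotein lipidation, at least 2.18-fold. The lower gene was Plin2, another coat protein, at 5.79 in LncGata6 mutant and 6.85 in wild-type stem cells, a call that ended under cyclic loess. On the Ehf knockout array Abhd5, a coactivator of triglyceride lipase, was at least 1.62-fold higher, and Cideb was lower with both values under the limits. The Cideb call ended under quantile normalization, cyclic loess and the control limit as floor. Under each of the 3 other scalings 2 genes were higher, and the list's median, -0.21, turned to 0.12 under quantile normalization and cyclic loess.

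Lipoprotein assembly and export gave 6 of 17 genes higher and 0 lower in LncGata6 mutant cells (median 0.54). Prap1, whose product helps the transfer protein, was 7.33-fold higher (10.11 against 7.24), Tm6sf2, needed for full lipid loading of apolipoprotein B particles, 3.38-fold and Pla2g12b, which acts in the same assembly, at least 2.39-fold. The other 3 were P4hb, the partner subunit of the transfer protein, A1cf, a cofactor of Apob RNA editing, and Sar1b, the coat GTPase that chylomicrons need to leave the endoplasmic reticulum. On the Ehf knockout array 7 of 17 were lower than on the wild-type stem array (median -0.71; 4 lower and 2 higher after quantile normalization). Prap1 was at least 4.13-fold lower there and A1cf at least 1.68-fold. Pla2g12b was also lower (-2.08), with both values under the limits, and Tm6sf2 read 4.09 against 6.03. Vamp7, a fusion protein of the chylomicron transport vesicle, was at least 1.72-fold lower, a smaller difference than these (4.79 against 5.97). Apobec1, which edits Apob RNA into its short intestinal form, read 5.88, 5.78, 5.81 and 5.97 on the LncGata6 mutant, Ehf knockout, wild-type stem and non-stem arrays, and so hardly varied.

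Chylomicron handling outside the gut, a list of 5 measured genes that includes lipoprotein lipase (Lpl), had 0 members called in either mutant comparison. Over all genes 5.82% were called in the LncGata6 mutant and 7.88% in the Ehf knockout comparison with wild type. On each stem cell array 1 of the 5, Lrp1, reached the control limit. The other genes lay under both that limit and the 75th percentile there, so no call of them was possible. On the wild-type stem array 4 of 5 were lower than on the non-stem array, among them Lpl (at least 5.97-fold, 2.20 against 8.20), its inhibitor Angptl4 (at least 2.5-fold) and the remnant receptor Lrp1 (3.30-fold). In the other lists the wild-type stem array was lower than the non-stem array in 6 of 11, 4 of 10, 4 of 10 and 8 of 17 genes, in the order of steps above, and higher in 0. After quantile normalization 6, 3, 3 and 6 were lower, and 1 gene of lipid uptake and activation was higher. Among the genes that differed were Apoa2 (at least 71.8-fold), Apoe (23.2-fold), Scp2 (at least 21.7-fold), Slc27a2 (21.5-fold), Dgat2 (at least 6.56-fold) and Gpam (at least 3.21-fold). The part of the liver and kidney RNA of the non-stem array in these differences was not tested.

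**Figure D4:**
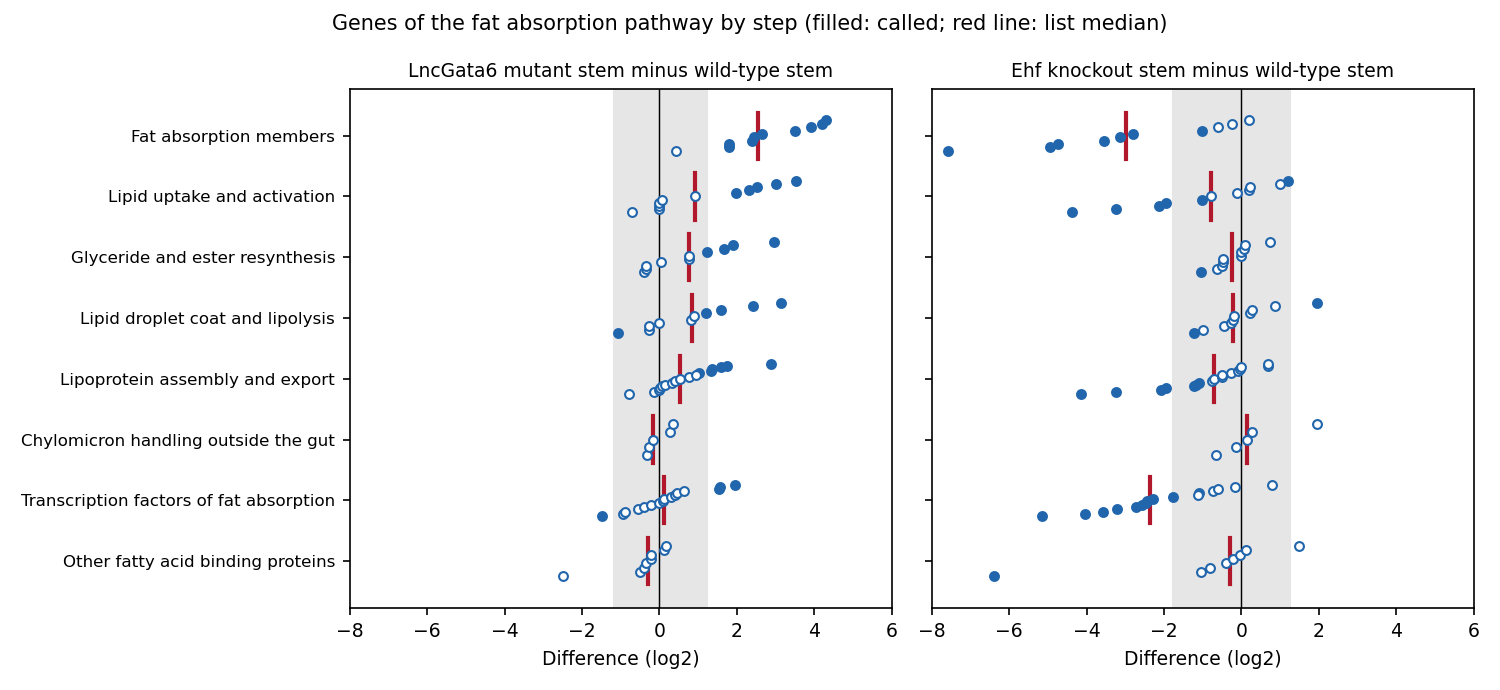
Difference (log2) of each gene by pathway step, for the LncGata6 mutant (left) and Ehf knockout (right) arrays against the wild-type stem array, filled where called, with a red line at each list's median and a grey band for the middle 95% of all genes. The 10 fat absorption genes have the most positive median on the left, 2.54, and the most negative on the right, -2.97. On the Ehf knockout array 2 of the 10 genes and 1 of the 16 transcription factors reached the control limit. The order of the medians on the right therefore rests on values under that limit.

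Of the transcription factors of fat absorption 16 were measured. On the LncGata6 mutant array 3 were higher than on the wild-type stem array and 1 lower (median 0.11). Creb3l3, a membrane-bound factor of lipid genes in liver and gut, was at least 3.11-fold higher, Hnf4g, a nuclear receptor of enterocytes, 2.90-fold and the coactivator Ppargc1a at least 2.20-fold. Nr5a2, a nuclear receptor expressed in crypts, was the lower one, at 4.73 against 6.22. On the Ehf knockout array 11 of 16 were lower and 0 higher (median -2.36), including Hnf4g (at least 4.57-fold), Gata6 (at least 4.05-fold) and Nr5a2 (at least 2.04-fold). The count was 8 lower with the control limit as floor, and 10 lower with 1 higher under quantile normalization and cyclic loess. Hnf4a, the nuclear receptor whose letters were searched for in the promoters, read 7.75 in LncGata6 mutant cells, 4.57 in Ehf knockout cells, 7.31 in wild-type stem cells and 8.16 in non-stem cells, and so was under the limit on the Ehf knockout array alone. Between wild-type stem and non-stem cells 6 of 16 were higher and 6 lower (7 and 5 after quantile normalization), with Klf5, a factor of crypt cells, at least 5.15-fold higher and Ppara, a fatty acid receptor, at least 2.33-fold lower.

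Among the 8 other fatty acid binding proteins, Fabp6, the ileal bile acid binding protein, was the one above the control limit on any stem cell array. It read 8.87 in LncGata6 mutant cells, 2.83 in Ehf knockout cells, 9.22 in wild-type stem cells and 1.91 in non-stem cells. Fabp6 was thus as low on the non-stem array as on the Ehf knockout array, whereas Fabp1 and Fabp2 were high on the non-stem array, and on the LncGata6 mutant array its difference from wild type was -0.35 and not called. Of the other 7, Fabp3 (7.01) and Fabp4 (5.86) exceeded the limit on the non-stem array, and the rest lay under it on all 4 arrays.

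Apoa1, Apoc3 and Apoa4 are neighbours on chromosome 9, followed by Apoa5, Zpr1 and Bud13. On the LncGata6 mutant array Apoa1, Apoc3 and Apoa4 were above the wild-type stem array by 3.51, 2.43 and 4.20 (log2). Apoa5, a regulator of plasma triglyceride made in liver, read 3.17 in LncGata6 mutant cells, 2.46 in Ehf knockout cells, 3.17 in wild-type stem cells and 5.59 in non-stem cells. Zpr1 and Bud13, which encode a zinc finger protein and a splicing factor, differed by -0.45 and -0.07 in the same comparison. Bud13 was under the control limit on every array. Zpr1 was under it on the LncGata6 mutant array (5.28) and just above it on the wild-type stem array (5.72). Apoa5 was under the control limit on both the LncGata6 mutant and wild-type stem arrays, so where the differences of this stretch end cannot be read from it. Between the wild-type stem and non-stem arrays Apoa5 differed by -2.42, in the same direction as Apoa1, Apoc3 and Apoa4. Apoa5, Zpr1 and Bud13 were chosen as neighbours, after values of the cluster had been seen.

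**Figure D5:**
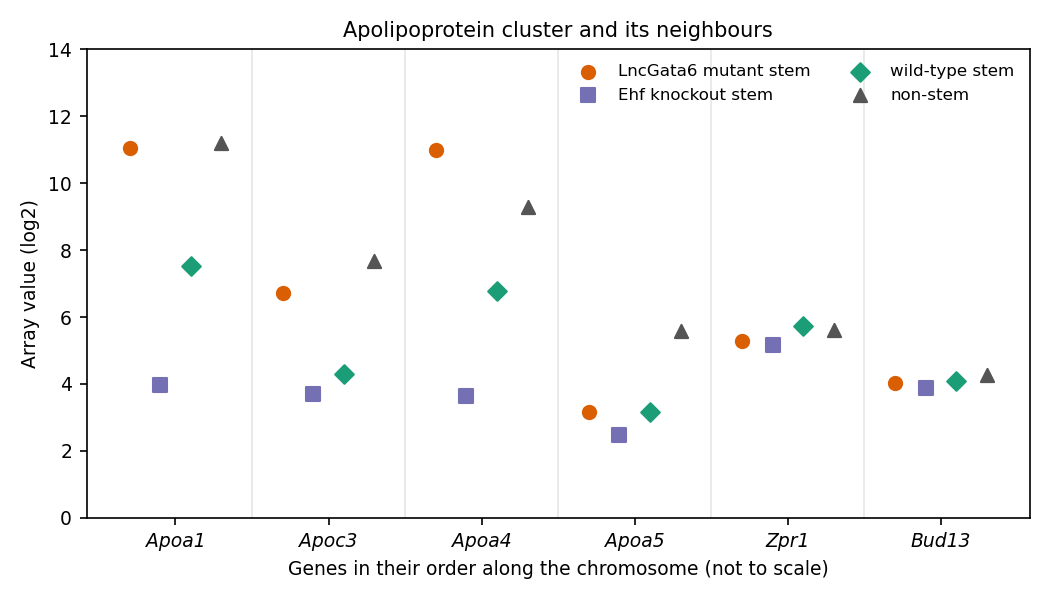
Array value (log2) of Apoa1, Apoc3, Apoa4, Apoa5, Zpr1 and Bud13, in their order along the chromosome and not to scale, on the 4 arrays. The first 3 are high on the LncGata6 mutant and non-stem arrays, and Apoa5 exceeds the control limit on the non-stem array alone. Zpr1 and Bud13 vary by less than 1 over the arrays, with Bud13 under the control limit on each and Zpr1 near it.

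The genes most like the 10 were sought among the 9523 genes that reached a control limit on at least 1 array. Likeness was the Euclidean distance between a gene's centred values over the 4 arrays and the centred median profile of the 10 genes. Tmigd1, which encodes an adhesion protein of the enterocyte brush border, was nearest (distance 0.54), with 8.53 in LncGata6 mutant cells, 2.45 in Ehf knockout cells, 5.19 in wild-type stem cells and 7.64 in non-stem cells. Apoa4 itself was next (0.68), followed by Alpi, the intestinal alkaline phosphatase (0.74), Prap1 (0.95), the trypsin inhibitor gene Spink1 (1.04) and, after Apoa1, the amino acid transporter subunit gene Slc3a1 (1.13). Fabp2 ranked 281st, and its wild-type stem and non-stem values lay close together. Cd36 ranked 2423rd and Dgat1 1920th. The distances include values under the control limits and the ranks are a description.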

How the data were processed

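Total RNA of 4 sorted cell samples, 1 per group, was read on Clariom D mouse arrays, per the labels' protocols. The deposited values are on the log2 scale, as judged from their range, 1 per array feature. The submitters' processing notes name RMA and Affymetrix Power Tools, and their versions are not given in the sources used here. In RMA a modelled background is subtracted and probes are summarised, which compresses differences of dim genes. The 4 arrays' medians over features with 1 symbol ran from 3.24 to 3.54, so the medians over these features were not equal as deposited.

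Symbols came from the platform annotation, updated through RefSeq genes of GRCm38.p6. Of 72688 features 31258 had 1 symbol, 1492 several (left out) and 39938 were unnamed here, which gave 30702 genes, 30700 of them in that table. For a gene with several features the one with the highest mean was used. Differences, calls, control limits and distances were computed with Python 3.11.15, pandas 2.3.3 and numpy 2.4.6, and alternative scalings with limma 3.58.1. Calling was tested on simulated arrays. With 1 array per group no test or error was possible. Named pathway genes are at most 3 per list and comparison, the largest called differences, and the 5 nearest genes by profile. Acsl4, Plin2, Vamp7, Apobec1, Mogat1, Hnf4a, the other fatty acid binding proteins, the remaining members of called groups and the genes of the chromosome 9 cluster were named outside that rule, after their values were seen. Members and lists were chosen with earlier results of these data known. Alternatives were equal medians, quantile normalization, cyclic loess, the median of a gene's features and the control limit as floor.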

Additional observations from a re-analysis of the deposited data

How the results depend on the processing

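The counts of fat absorption genes called higher and lower and their median differences in the 4 comparisons gave 56 values under the alternatives, and all 56 kept their direction and stayed within 1.5 times of the main count or fold. Of the values for single genes, 195 stayed called or uncalled as before and 5 lost the call. Each of the fat absorption genes has 1 feature, so the median of features could not change any of these values. It gave 12 of the 56 and 40 of the 195. Among the uncalled ones 3 changed sign: Dgat1 in the Ehf knockout against wild-type stem comparison (-0.25) under quantile normalization (0.07) and cyclic loess (0.11), and Cd36 between the mutants (0.24) under quantile normalization (-0.11). The 5 lost calls were Mogat2 in the Ehf knockout against wild-type stem comparison with equal medians (-0.84), quantile normalization (-0.68), cyclic loess (-0.67) and the control limit as floor, and Fabp1 in the same comparison with the control limit as floor. That comparison then gave 5 to 7 lower genes over the alternatives, and its median ran from -2.97 to -2.66. The counts of 9 higher genes on the LncGata6 mutant array against wild-type stem and against Ehf knockout were the same number under all 5 alternatives. So was the count of 6 lower genes on the wild-type stem array against non-stem. For the median of features this had to be so. Scaling moved the share of higher calls among all genes more, as in the Ehf knockout against wild-type stem comparison, where it was 32.9% as deposited and 52.2% after quantile normalization. No paired analysis was possible because each group has 1 array. No replicate could be left out for the same reason. Values under the control limit have no order, which limits all statements on the Ehf knockout array.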

Other observations

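Among the 7 measured genes listed for the pancreatic acinar cell, 2 genes of luminal fat digestion exceeded the control limit in wild-type stem cells. The same 2 also exceeded it in LncGata6 mutant cells. Clps, which encodes the cofactor of pancreatic lipase, read 6.79 in LncGata6 mutant cells, 4.07 in Ehf knockout cells, 9.0 in wild-type stem cells and 4.11 in non-stem cells. Pnliprp2, a lipase related to the pancreatic enzyme that splits milk fat and galactolipids, read 6.83, 2.98, 8.22 and 3.40 in the same order. Both were thus highest on the wild-type stem array and under the control limits on the Ehf knockout and non-stem arrays. The other 5 measured acinar genes, Cel, Pla2g1b, Cpa1, Cela1 and Prss2, lay under the control limit on the 3 stem cell arrays. These genes were singled out after their values were seen, and with 1 array per group the pattern has no replicate check. The part of pancreatic RNA in the Clps and Pnliprp2 values was not tested.

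The adipocyte list had 1 member above a control limit, Cidec at 7.0 on the LncGata6 mutant array, while Adipoq, Plin1, Lep and Retn stayed under the limits on all 4 arrays. The part of fat cells in the Cidec value was not tested.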
